A study of Homo sapiens with 6 samples.

Results

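SREBF2 and 7 genes of sterol synthesis and transport were followed in HCT116, an established line of human colon carcinoma cells, after infection with a lentivirus carrying a short hairpin RNA (shRNA) against ERRalpha. The members were the genes SREBF2, AACS, FDPS, FDFT1, CYP51A1, MSMO1, HSD17B7 and STARD4, found by name among the 1458 genes of the authors' deposited table. That table lists 2122 of 256161 usable probe sets (0.828%), all of which differed 2-fold or more between the groups with a t statistic whose p, not adjusted, was below 0.01. The 8 genes held 18 listed probe sets, and the unbroken runs of consecutive probe set identifiers around them held 102 probe sets, of which 100 were usable. The members were therefore chosen by the same difference that is described here, on the same arrays. Their levels and changes are given as descriptions, without a test.

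The study set 3 shERRalpha arrays against 3 shscrambled arrays, which the labels call biological replicates. The shERRalpha cells carried the shRNA against ERRalpha and the shscrambled cells a scrambled shRNA. Both groups were grown with 10% serum, infected for 48 h and then kept in puromycin for 48 h. Nothing in the labels says whether the replicates came from separate infections, and 1 hairpin name is given per group, so loss of ERRalpha cannot be told apart from other effects of that hairpin. Expression was measured with Affymetrix whole-transcript arrays, with many probe sets per gene. Values are log2 units, in which a difference of 1 is a 2-fold difference, and levels of different probe sets are not comparable with each other.

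ERRalpha is the product of ESRRA, a nuclear receptor that controls genes of mitochondrial energy metabolism. Sterol synthesis is governed by SREBP-2, the product of SREBF2, a membrane-bound transcription factor of the endoplasmic reticulum. When sterols are scarce it is carried to the Golgi and cleaved there, and its released part enters the nucleus and activates genes of cholesterol synthesis and uptake, including its own gene. The pathway builds acetyl units into mevalonate and farnesyl diphosphate, joins farnesyl units into squalene, and turns squalene through lanosterol into cholesterol.

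The arrays differed in quality of agreement. The correlation of shERRalpha replicate 1 with the other 5 arrays over all probe sets was 0.867 to 0.877, against 0.933 to 0.947 among those 5. Changes of run medians are given with and without it. ESRRA, the target of the hairpin, had listed medians of 2.29, 2.60 and 2.23 in shERRalpha arrays, against 4.86, 5.10 and 5.28 in shscrambled arrays. The levels of 2.29 and 2.23 are below 2.41, the 25th percentile of the means of all probe sets, so the size of the difference is not exact. The 4 unlisted probe sets of the ESRRA run gave no common direction, with 2 lower, 2 higher, none without overlap and a median change of -0.31. With limma, fitted to all 256161 probe sets, 0 reached an adjusted p under 0.05, while 6962 were higher and 11577 lower at an unadjusted p under 0.05. An equal-variance test per probe set also called 0 after adjustment, with 7480 higher and 11084 lower before it. Of 8 colon epithelial markers CDH1 alone was listed, lower at 7 probe sets. Of 3 fibroblast markers COL3A1 and of 3 endothelial markers KDR was listed, each higher at 1 probe set, and none of 4 leukocyte markers was. Their part in the results was not tested, and the other markers could not be checked, because gene names exist for listed probe sets only.

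All 18 listed probe sets of the 8 genes were lower in shERRalpha. The background for this count is 0.557% of all probe sets listed as lower and 0.271% as higher, from which nothing can be read because the listing chose the members. For each of the 8 genes the median of the listed probe sets was lower on every shERRalpha array than on any shscrambled array. The change ran between 2.01-fold lower for CYP51A1 and 6.45-fold lower for HSD17B7, whose shERRalpha levels also lay below 2.41 log2 units, so that this upper end is not exact.

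**Figure D1:**
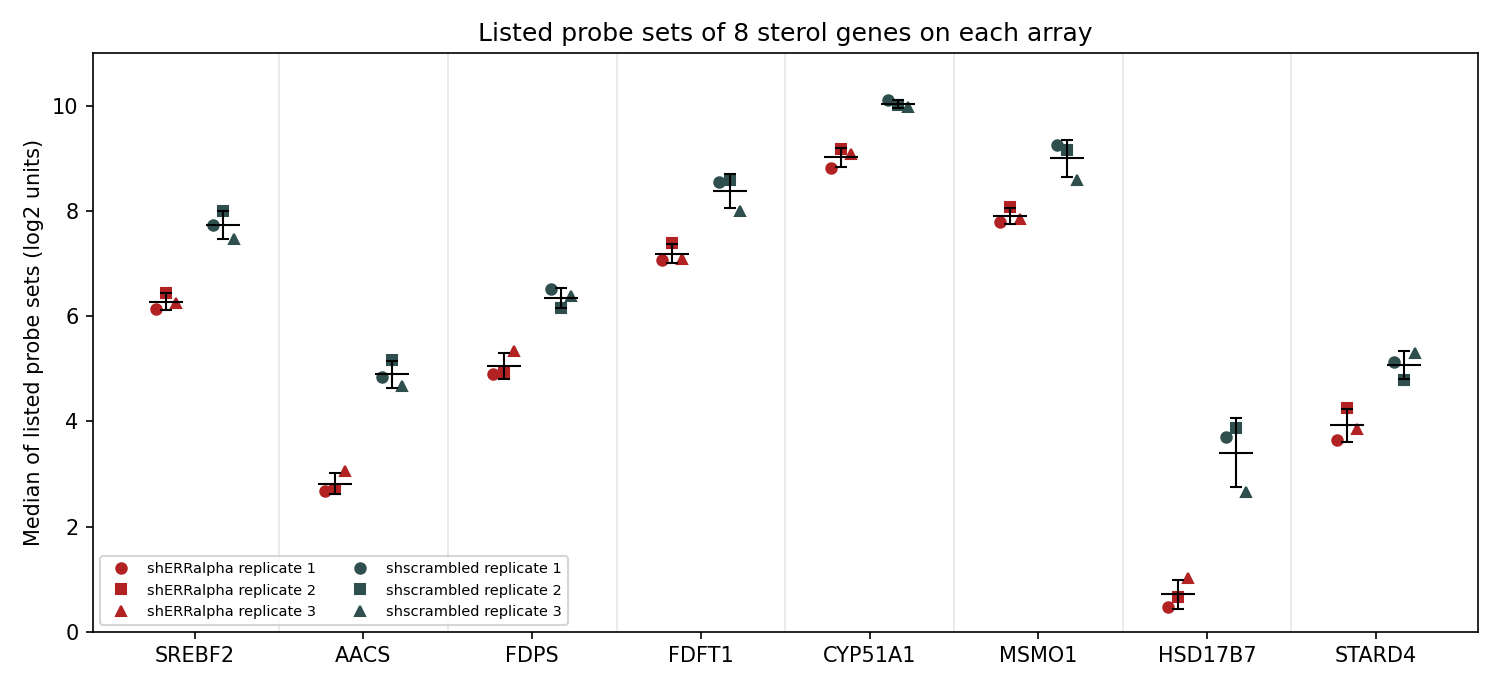
Median of the listed probe sets of each gene (log2 units, vertical axis) on the 3 shERRalpha arrays (red, left of each pair) and the 3 shscrambled arrays (dark, right), with mean and SD as bars. No shERRalpha point reaches a shscrambled point of the same gene, which the listing of the probe sets sets in advance.

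SREBF2 had the most listed probe sets of the 8 genes, 6 listed probe sets in a run of 21. The median of the listed ones was 6.14, 6.45 and 6.25 log2 units on the shERRalpha arrays, against 7.73, 7.99 and 7.46 on the shscrambled arrays. The groups were thus more than 1 log2 unit apart at their closest arrays. The means were 6.28 ± 0.16 in shERRalpha and 7.73 ± 0.26 in shscrambled (SD, n = 3 each), a log2 change of -1.45. The 6 listed probe sets lay at positions 2, 3, 8, 11, 13 and 20 of the run, so they were spread over it and not grouped at one end. Their changes ran between -1.16 and -1.63.

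The 15 unlisted probe sets of the SREBF2 run were all lower in shERRalpha, and in 12 of them the groups did not overlap. Of all unlisted probe sets 50.1% were lower and 7.87% were lower without overlap. These shares are also the background for such counts in the other runs below. The median change of the 15 was -1.10. The smallest was -0.10 at position 12, where the arrays overlapped at 7.64, 7.26 and 7.37 in shERRalpha, against 7.91, 7.38 and 7.27 in shscrambled. The largest, -2.73 at position 7, came with a single low array: shERRalpha levels were 0.73, 5.91 and 5.40, against 6.65, 6.97 and 6.60 in shscrambled. Replicate 1 alone was near the floor there, but the other 2 shERRalpha arrays were also below every shscrambled array. The median of the whole run was 6.07, 6.24 and 5.69 in shERRalpha, against 6.79, 7.38 and 7.06 in shscrambled, a change of -1.08, and of -1.11 without shERRalpha replicate 1.

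**Figure D2:**
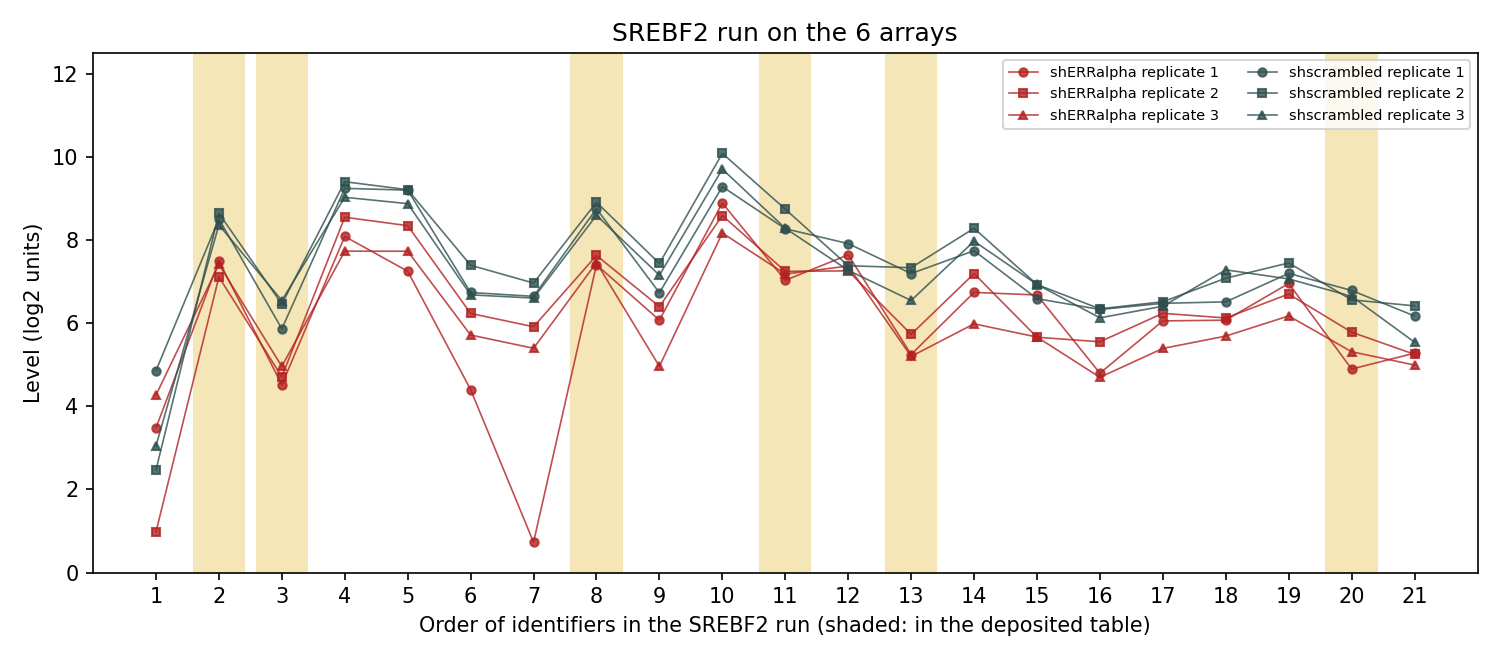
Level (log2 units) of each of the 21 probe sets of the SREBF2 run, in the order of their identifiers, with 1 line per array; shaded positions are listed in the deposited table. The 3 shERRalpha lines (red) run below the 3 shscrambled lines (dark) at most positions and overlap with them at positions 1, 12 and 15. shERRalpha replicate 1 drops to 0.73 at position 7 and shERRalpha replicate 2 to 0.98 at position 1.

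The promoters of members were searched because the genes share a direction and because SREBP-2 is known to act through a sterol regulatory element with a Y-box, the site of NF-Y, close by. All but FDFT1 were searched, 7 of the 8 genes, in windows of 250 bases before to 50 after the start site from RefSeq (GRCh38.p14). The motif TCACNCCAC, a core of the sterol regulatory element, was found on either strand in SREBF2 alone among the 7, and in 1.13% of 35116 promoters. The Y-box CCAAT was found in 5 of 7 (SREBF2, FDPS, MSMO1, HSD17B7 and STARD4), against 34.6% of all promoters. The GC box GGGCGG was in 7 of 7, against 45.0%. The ERR response element TNAAGGTCA was in 0 of 7, against 0.951%. A match is a string of letters and no evidence of binding, and sterol elements often differ from this core by a base. Shown are the promoter with the sterol element and 3 of the 4 with 2 or more Y-boxes, 5′ to 3′ on the strand of the gene, with matches to TCACNCCAC and CCAAT on either strand in capitals.
SREBF2, chr22:41832855-41833154, plus strand: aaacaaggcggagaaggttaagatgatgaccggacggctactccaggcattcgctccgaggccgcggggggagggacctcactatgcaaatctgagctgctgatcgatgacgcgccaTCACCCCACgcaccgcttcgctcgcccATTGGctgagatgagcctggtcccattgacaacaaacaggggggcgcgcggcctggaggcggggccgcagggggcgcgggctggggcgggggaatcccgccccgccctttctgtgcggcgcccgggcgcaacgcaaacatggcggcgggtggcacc
FDPS, chr1:155308616-155308915, plus strand: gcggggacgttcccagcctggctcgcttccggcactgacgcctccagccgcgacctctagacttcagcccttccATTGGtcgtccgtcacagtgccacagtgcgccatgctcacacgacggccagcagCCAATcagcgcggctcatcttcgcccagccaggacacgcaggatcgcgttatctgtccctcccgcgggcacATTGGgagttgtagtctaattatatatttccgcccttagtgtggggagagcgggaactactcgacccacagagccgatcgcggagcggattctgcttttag
MSMO1, chr4:165327419-165327718, plus strand: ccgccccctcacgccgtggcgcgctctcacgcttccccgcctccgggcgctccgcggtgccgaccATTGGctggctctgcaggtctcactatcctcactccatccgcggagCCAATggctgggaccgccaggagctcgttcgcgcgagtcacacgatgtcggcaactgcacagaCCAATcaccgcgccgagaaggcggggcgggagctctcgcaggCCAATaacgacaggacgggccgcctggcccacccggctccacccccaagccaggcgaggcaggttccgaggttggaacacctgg
STARD4, chr5:111512486-111512785, minus strand: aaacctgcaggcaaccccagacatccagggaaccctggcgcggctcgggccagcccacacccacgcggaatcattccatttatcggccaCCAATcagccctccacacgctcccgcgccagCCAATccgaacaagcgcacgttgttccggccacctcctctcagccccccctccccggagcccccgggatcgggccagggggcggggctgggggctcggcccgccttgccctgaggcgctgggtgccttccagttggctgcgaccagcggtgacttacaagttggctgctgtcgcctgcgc

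In SREBF2 the sterol element began at base -133 and the Y-box, on the opposite strand, at -106, counted from the start site. FDPS had 3 Y-boxes, MSMO1 4 and STARD4 2, and HSD17B7, not printed, had 2. In AACS and CYP51A1 neither motif was found in the window.

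At the entry to the pathway, AACS encodes acetoacetyl-CoA synthetase, which activates acetoacetate in the cytosol for lipid synthesis. Its 2 listed probe sets, at positions 2 and 19 of a run of 20, had a median of 2.68, 2.72 and 3.06 in shERRalpha, against 4.84, 5.16 and 4.67 in shscrambled. The log2 change was -2.07 (2.82 ± 0.21 in shERRalpha, 4.89 ± 0.25 in shscrambled, SD, n = 3 each). At position 2 every shERRalpha array was below 2.41, so the size of the change is not exact. The rest of the run showed no common direction. Of 16 other usable probe sets 9 were lower and 7 higher, between -1.95 and 1.22, and in only 1 did the groups not overlap on the lower side. The run median was 4.51, 4.42 and 4.68 in shERRalpha, against 5.24, 5.44 and 5.15 in shscrambled, a change of -0.74, and of -0.73 without shERRalpha replicate 1. With the mean of the probe sets in place of their median it was -0.43. AACS has 1 pseudogene in the gene table, and its part in the signal was not tested.

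FDPS, farnesyl diphosphate synthase, makes the branch point compound of the isoprenoid pathway. Its 1 listed probe set had 4.90, 4.92 and 5.34 in shERRalpha, against 6.51, 6.15 and 6.38 in shscrambled. It was 2.45-fold lower. Of the 11 others in its run 10 were lower, 6 of them with groups that did not overlap, and their median change was -0.69, smaller than that of the listed one. Over the whole run the median was 5.58, 6.47 and 6.42 in shERRalpha, against 6.82, 6.62 and 6.90 in shscrambled. Replicate 1 was the low array, and without it the change of -0.62 became -0.33. FDPS has 10 pseudogenes in the gene table, and their part in the signal was not tested.

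FDFT1, squalene synthase, takes the first step committed to sterols. The median of its 4 listed probe sets was 7.07, 7.39 and 7.09 in shERRalpha, against 8.55, 8.58 and 8.004 in shscrambled. The change was -1.19, with 7.18 ± 0.18 in shERRalpha and 8.38 ± 0.32 in shscrambled (SD, n = 3 each). Of the 9 others in the run 8 were lower, between -1.80 and 0.04, and 6 had groups that did not overlap. The run median was 6.56, 7.94 and 7.67 in shERRalpha, against 9.13, 9.11 and 8.53 in shscrambled. The change was -1.54, and it was -1.12 without shERRalpha replicate 1. With the mean of the probe sets in place of the median it was -1.07.

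CYP51A1, lanosterol 14-alpha-demethylase, starts the conversion of lanosterol. Its listed probe set was at 8.82, 9.17 and 9.07 in shERRalpha, against 10.11, 10.01 and 9.96 in shscrambled. The change of -1.01 was just past the 2-fold limit. It was inside that limit without shERRalpha replicate 1 (-0.91), without shscrambled replicate 1 (-0.97), and after quantile normalisation or median centring of the arrays (-0.95 each). The run holds only 4 probe sets, and the 3 others were all lower, at -0.81, -0.97 and -0.12. Its run median was 6.76, 6.50 and 6.03 in shERRalpha, against 7.07, 7.38 and 7.51 in shscrambled, a change of -0.89, and of -1.05 without shERRalpha replicate 1. CYP51A1 has 3 pseudogenes in the gene table, whose part was not tested either.

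MSMO1, listed under its older name SC4MOL, encodes the methylsterol monooxygenase that oxidises the C4 methyl groups. Its 2 listed probe sets had a median of 7.79, 8.07 and 7.85 in shERRalpha, against 9.24, 9.15 and 8.59 in shscrambled. The change was -1.09, with 7.90 ± 0.14 in shERRalpha and 8.996 ± 0.35 in shscrambled (SD, n = 3 each). Of the 6 others 5 were lower, 4 without overlap. The exception, at position 8, was dim and higher in shERRalpha, at 2.47, 0.98 and 1.02 against 0.50, 0.30 and 0.80 in shscrambled. The run median was 5.02, 4.83 and 5.49 in shERRalpha, against 6.79, 6.60 and 6.26 in shscrambled, a change of -1.44, and of -1.39 without shERRalpha replicate 1. With the mean of the probe sets it was -0.89.

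HSD17B7 encodes a 3-ketosteroid reductase that completes removal of the C4 methyl groups. The 1 listed probe set was at 0.47, 0.66 and 1.02 in shERRalpha, against 3.70, 3.87 and 2.65 in shscrambled. The shERRalpha levels were again below 2.41, so the 6.45-fold difference is not exact. Of the 13 others 11 were lower, 3 of them without overlap, and 2 were higher, 1 of them without overlap. The median change of the 13 was -0.31. As a median, the run was at 4.02, 4.25 and 4.64 in shERRalpha, against 4.53, 4.76 and 4.72 in shscrambled. These groups overlapped, the only such case among the 8, and the change of -0.37 was -0.23 without shERRalpha replicate 1. Over the probe sets above the 25th percentile it was -0.78. HSD17B7 has 2 pseudogenes in the gene table.

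STARD4 encodes a soluble carrier that moves cholesterol between membranes. Its listed probe set was at 3.66, 4.26 and 3.86 in shERRalpha, against 5.13, 4.79 and 5.30 in shscrambled, 2.22-fold lower. Unlike those of HSD17B7, the others in its run were lower by about as much: 8 of 9 were lower, 5 without overlap, with a median change of -1.04. The run median was 4.59, 5.53 and 5.40 in shERRalpha, against 6.14, 6.27 and 6.43 in shscrambled. The change was -1.10, and -0.81 without shERRalpha replicate 1.

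**Figure D3:**
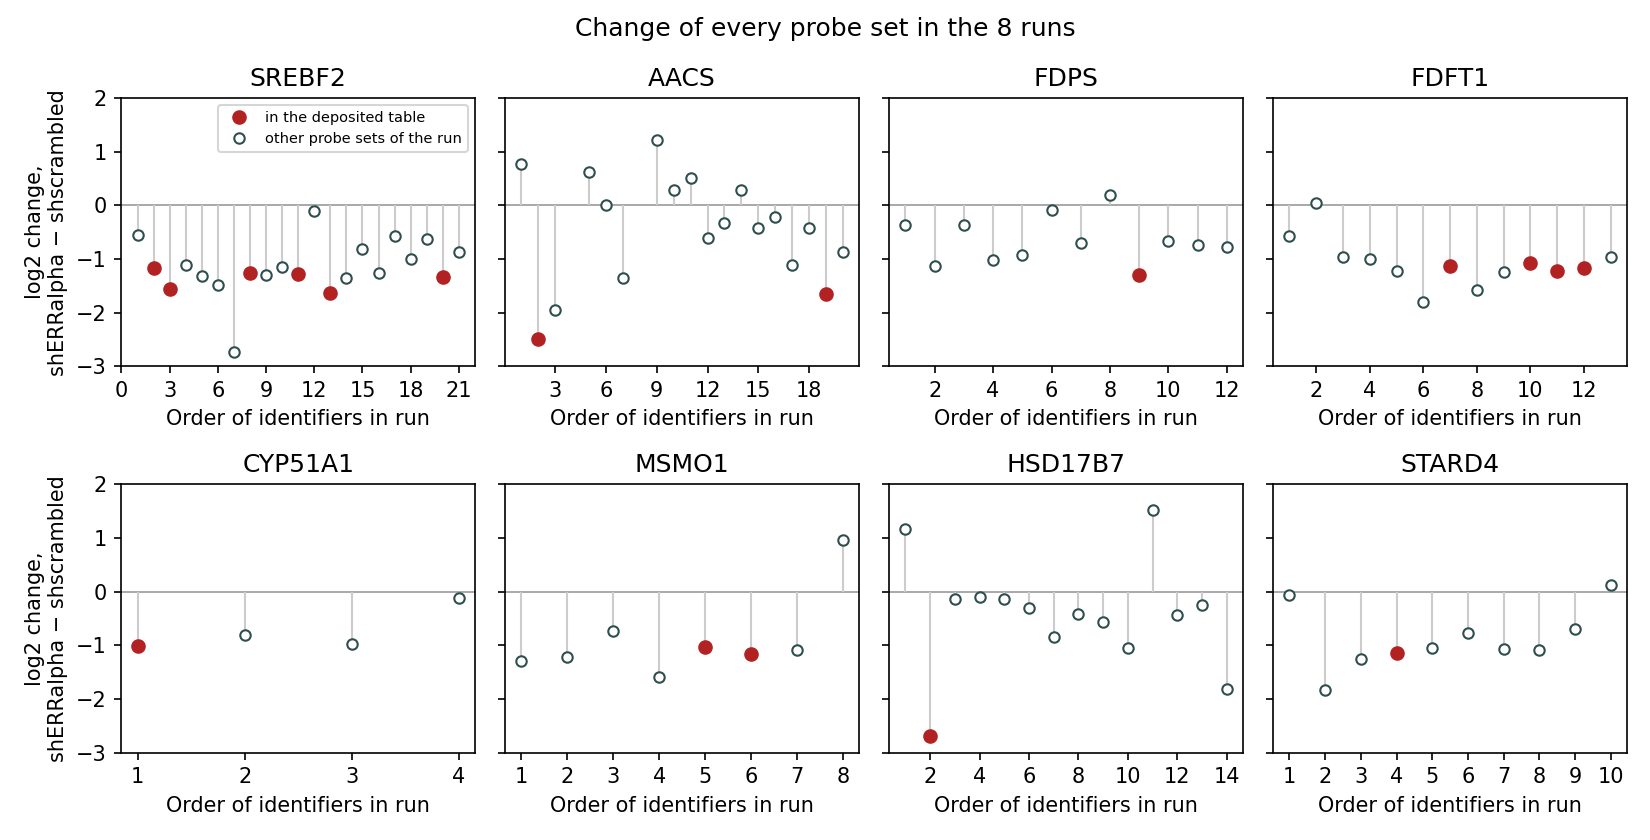
Log2 change (shERRalpha minus shscrambled, vertical axis) of every usable probe set in the 8 runs, in the order of identifiers; filled points are listed in the deposited table and open points are not. The open points of AACS lie on both sides of 0, and those of every other run lie mostly below 0. In HSD17B7 11 of 13 lie below 0, with a median of -0.31 over the 13.

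Over the 8 runs, 69 of 82 unlisted probe sets were lower in shERRalpha, against a background of 50.1% of all unlisted probe sets. In 39 of the 82 every shERRalpha array was below every shscrambled array, against a background of 7.87%. In 2 every one was above, and no background share was computed for that side. The median change of the 82 was -0.75, and that of all unlisted probe sets was -0.00. These probe sets share transcripts and arrays with the listed ones that chose the runs, so the counts describe how far a listed difference extends along its gene and are no independent support for it. Of the 82, 28 were at least 2-fold lower and missed the list through their p. A further 2 were lower with a p under 0.01 and missed it through their fold, CYP51A1 at 1.96-fold and FDPS at 1.59-fold. The shares of all unlisted probe sets that missed the list in these ways were not computed, so nothing is read from either count. The smallest folds inside the list were 2.01 for CYP51A1 and 2.04 for MSMO1.

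By run medians, 8 of 8 genes were lower, against 50.2% of the 19182 runs with at least 3 probe sets. In 7 of 8 the groups did not overlap, against 10.5% of runs. It was 7 of 8 also without shERRalpha replicate 1, a setting in which no background share was computed. The run medians include the listed probe sets, so the choice of members partly sets these counts and nothing is read from them: the AACS run was at -0.74 with its listed probe sets, and the median change of its unlisted ones was -0.28. A change of -1 or less was found in 1.56% of runs, and SREBF2, FDFT1, MSMO1 and STARD4 had one. Without shERRalpha replicate 1 such a change was found for SREBF2, FDFT1, MSMO1 and CYP51A1, and the share of all runs was not computed there. Within the shERRalpha group no array was always lowest: replicate 1 was lowest in 4 runs, replicate 2 in 2 and replicate 3 in 2.

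Over the 6 arrays the listed medians of the other 7 members had correlations with SREBF2 between 0.89 for STARD4 and 0.99 for FDFT1. The group difference raises such values for genes listed as lower, as SREBF2 is, and lowers them for genes listed as higher. With group means taken out, the correlation was 0.91 for FDFT1, 0.83 for MSMO1, 0.77 for HSD17B7, 0.62 for AACS, 0.52 for CYP51A1, -0.15 for STARD4 and -0.36 for FDPS. Each of these rests on 6 values that share their arrays. In the set of 119 genes that had 3 or more different listed probe sets, those most like SREBF2 over the 6 arrays were PTPN13, MPP7, SCAMP1, NFIB and CKMT1A, at 0.99 to 1.00. With group means taken out, PTPN13 was at 0.93, MPP7 at 0.92, SCAMP1 at 0.86, NFIB at 0.84 and CKMT1A at 0.84. These genes were picked for a high correlation over the 6 arrays, which also favours high values here. Nothing particular to sterol genes is read from the values of the members. A correlation over 0.9 on the 6 arrays was reached by 82 of the 119.

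The 7 lists of sterol metabolism held 64 genes. The 8 members were among them, and of the 56 others 7 were listed, 6 lower and 1 higher. As a background, 5.12% of runs with at least 3 probe sets held a probe set listed as lower and 2.86% one listed as higher. The share of named genes that are listed is not known, since only listed probe sets carry names, so nothing particular to the lists is read from the counts. Leaving out the members, 1 of 9 was listed lower in the steps to isoprenoids, 1 of 9 in those after squalene, and 1 of 6 among SREBP genes and their processing factors. In uptake, transport and storage 1 of 10 was lower and 1 higher, and in efflux 2 of 7 were lower. None of 10 genes that use isoprenoids and none of 5 ketone body genes was listed, and an unlisted gene has no name here and hence no value.

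TM7SF2, a sterol C14 reductase, had 1 listed probe set at -1.18 and a run change of -0.45, which was -0.42 without shERRalpha replicate 1. SREBF1, the paralog whose products act mainly on fatty acid synthesis, had 2 listed probe sets with a median of 3.68, 3.78 and 3.94 in shERRalpha, against 5.14, 5.37 and 5.47 in shscrambled, a change of -1.53. Of the 19 others in its run 18 were lower, 8 without overlap, against 50.1% and 7.87% of all unlisted probe sets. The SREBF1 run median was 5.98, 5.44 and 5.42 in shERRalpha, against 6.04, 6.20 and 5.96 in shscrambled. The groups overlapped through shERRalpha replicate 1 alone, and the change of -0.45 was -0.64 without it. SCARB1, a receptor for high-density lipoprotein, had a run median of 5.93, 6.36 and 6.30 in shERRalpha, against 7.11, 7.10 and 7.26 in shscrambled, a change of -0.96, and of -0.82 without shERRalpha replicate 1. The efflux transporters ABCA1 and ABCG1 were listed lower by 3 probe sets each. Their listed shERRalpha levels, 0.66 to 1.54 for ABCA1 and 0.47 to 0.90 for ABCG1, were also below 2.41. The ABCA1 run median was 3.05, 1.96 and 2.21 in shERRalpha, against 2.87, 3.15 and 2.76 in shscrambled, a change of -0.52. That of ABCG1 was 3.32, 2.60 and 2.99 in shERRalpha, against 3.27, 3.56 and 3.92 in shscrambled, a change of -0.61. In both genes shERRalpha replicate 1 alone made the groups overlap, and without it the changes were -0.84 for ABCA1 and -0.79 for ABCG1.

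**Figure D4:**
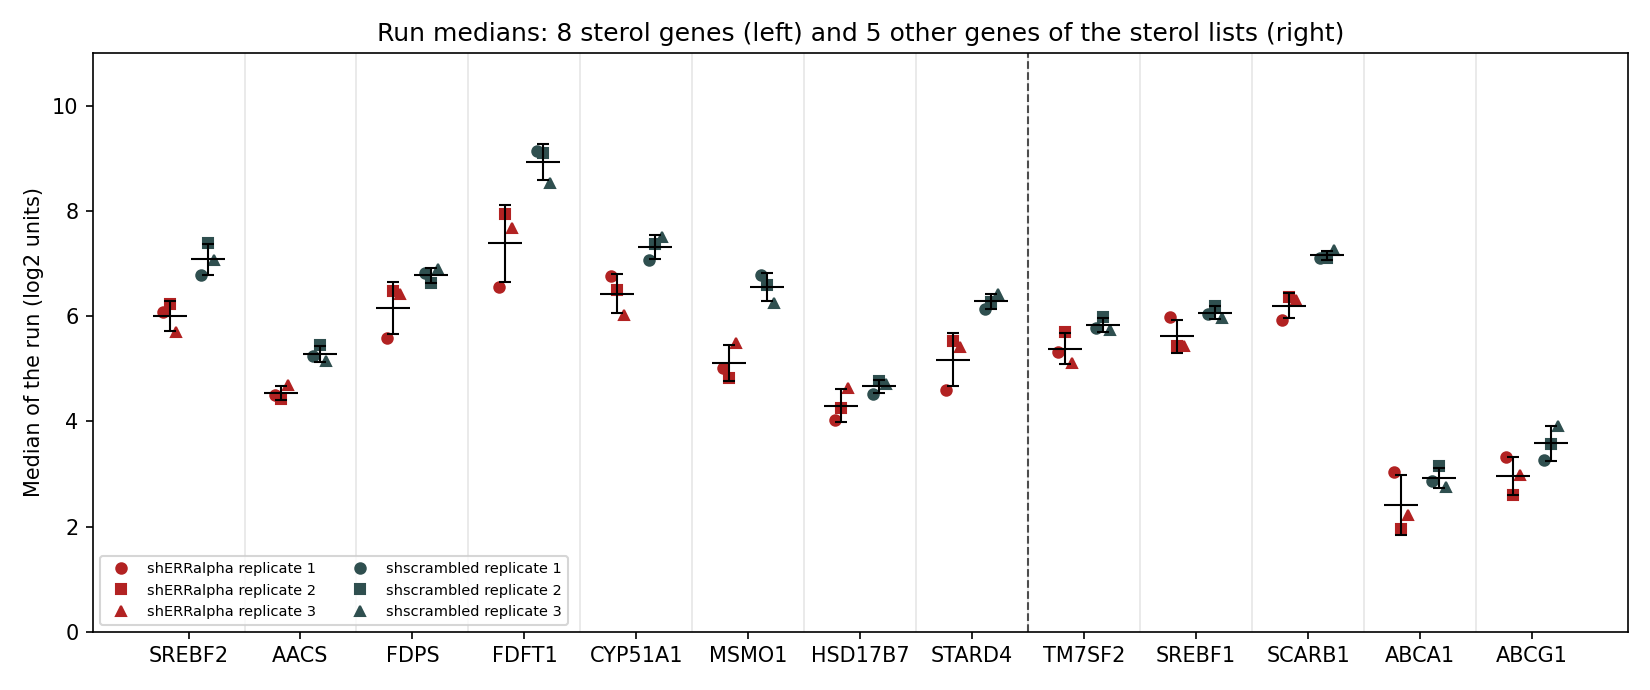
Median of the run of each gene (log2 units) on the shERRalpha arrays (red, left of each pair) and the shscrambled arrays (dark, right), with mean and SD, for the 8 members and, right of the dashed line, 5 of the 7 other listed genes of the sterol lists; the gene listed higher is not among those shown. The groups of HSD17B7, SREBF1, ABCA1 and ABCG1 overlap.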

How the data were processed

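Total RNA of 6 HCT116 samples was hybridised to Affymetrix arrays. RMA was the authors' method of summary and normalisation, per the submitters' processing notes; its version is not given in the sources used here, nor are the annotation and the build. The deposited value table is a score in the sense that its log2 values lost their decimal mark. Strings of 7 digits were read as 10 or more, and 90472 values (5.86%) could be read either way. They took the reading nearer to the other values of the probe set, if there were any. In 159 probe sets every value could be read either way, and these were kept at the lower reading. Where the distances of both readings differed by less than 4 log2 units the probe set was undecided; 12 were settled by the deposited fold and 1269 left out, 2 of them in the AACS run. The reading gave all 2122 deposited fold changes (a ratio, shERRalpha over shscrambled, by the authors) to 0.001 log2 units and every deposited p-value to 1%. For the 12 settled by the deposited fold, the agreement in fold was set in advance. Unlisted probe sets have no deposited fold to compare with.

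Genes were named through accessions in the RefSeq table (GRCh38.p14), STARD4 by its symbol. Unlisted probe sets of a run carry no name and may belong to another gene. limma 3.58.1 (R 4.3.3, lmFit and eBayes, Benjamini-Hochberg) was fitted to all probe sets and tested on simulated data. The number of arrays limits the precision. Members, lists, motifs and tests were chosen with earlier results of these data known. Named genes were all members and the genes of the 7 lists found in the deposited table, except that some genes counted there are not reported here by name. No pairing by replicate number was used in the main fit. Deviations of same-numbered arrays from their group means correlated at 0.068, 0.048 and 0.084. Arrays of different number were not compared in this way, so these values cannot decide whether the numbers pair arrays. Alternatives were leaving out each array, a replicate block, quantile normalisation, median centring, filters on dim probe sets, array weights, an equal-variance t-test and other summaries.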

Additional observations from a re-analysis of the deposited data

How the results depend on the processing

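Of 175 values of the 8 genes (listed and run medians) under alternatives, 0 reversed and 3 moved by more than the SD between replicates. Many of these outcomes were fixed in advance. Leaving out 1 of 3 arrays cannot shift a value by more than that SD, nor reverse a change between groups that do not overlap. A replicate block leaves a run change as it is. The listed values were also selected for their difference, so these counts say little of stability. The 3 that moved were run changes. Those of AACS (-0.43) and MSMO1 (-0.89) did so by the mean over probe sets. That of HSD17B7 (-0.78) did so above the 25th percentile of means. The listed HSD17B7 probe set is under that percentile and has no value there. Leaving out shERRalpha replicate 1 moved the run changes of FDPS to -0.33 and of HSD17B7 to -0.23. The count of unlisted probe sets lower, 69 of 82, was 65 to 70 when an array was left out, 60 of 66 without the AACS run and 71 of 84 with the undecided probe sets, an alternative added after the data were seen.

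limma called 0 probe sets at an adjusted p under 0.05 in every setting run, with 3464 to 9139 higher and 7054 to 13199 lower at an unadjusted p under 0.05. Probe sets past the rule of p under 0.01 and 2-fold numbered 695 higher and 1427 lower. Leaving out 1 array gave 513 to 906 higher and 775 to 1705 lower, with 909 lower without shscrambled replicate 1 and 775 without shscrambled replicate 2. With a replicate block there were 392 higher and 675 lower, and above the median of means, where fewer probe sets were tested, 270 and 854. The cause of the other shifts was not tested. A replicate block leaves the log2 change of a run as it is.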
